A study of Mus musculus with 16 samples.

Results

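The cells described here are those labelled Sclerotome in chimeric mouse embryos. The label had been transferred to each cell by the authors from its nearest neighbours in an atlas of mouse gastrulation and early organogenesis. Cells counted as members if they carried that label, passed the authors' RNA quality filter and were not called doublets, at any stage, and WT-sorted cells with a tomato-td UMI were left out. They were 1830 of 37841 cells of 87 cell types. Of these, 1 came from E7.5, 146 WT host and 195 *Stat3* null cells from E8.5, and 790 WT and 698 null cells from E9.5.

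The sclerotome is the ventral part of the somite, the segmented block of mesoderm beside the neural tube. Sonic hedgehog from the notochord and floor plate induces it, its cells lose their epithelial order, and they go on to form vertebrae, ribs and, at its border with the muscle-forming part of the somite, tendon. *Pax1* and *Pax9* are the transcription factors that mark it, and *Nkx3-2* acts after them on the way to cartilage. Within each segment the rostral and caudal parts differ, marked by *Tbx18* and *Uncx*, and Hox genes give the segments their position along the body axis.

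The donor cells were tdTomato-positive *Stat3* null embryonic stem cells (ESCs) of CD1 background, in which several *Stat3* exons are replaced by a resistance cassette. They were injected into wild-type (WT) CD1 blastocysts, and chimeras of embryonic day 7.5 (E7.5), 8.5 (E8.5) or 9.5 (E9.5) were dissociated whole and separated by flow cytometry into null cells, with tdTomato, and WT host cells, without it. Each fraction was sequenced as a 3′ single-cell library, and each genotype had 2 libraries at E7.5, 2 at E8.5 and 4 at E9.5. The comparison asks what the loss of *Stat3* changes in cells that developed in the same embryos as WT cells. The tdTomato ESCs had been grown from picked colonies in culture and the WT cells were never cultured, so genotype and ESC origin cannot be told apart. Every WT cell shared its embryo with null cells, and no embryo without donor cells was analysed here. Libraries carry the letters A to D within their group, as names only.

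At E8.5 the WT libraries held 83 and 63 Sclerotome cells and the null libraries 165 and 30. At E9.5 the WT libraries held 195, 180, 185 and 230 and the null libraries 199, 241, 128 and 130. Counts of unique molecular identifiers (UMIs, single captured transcripts) were summed over these cells for each library, which gave 756793 to 8596941 UMIs per library at E8.5 and E9.5, and levels are CPM, UMIs of a gene per 1000000 UMIs of that sum. The median cell held 16027 to 51698 UMIs. Among the null libraries 93.3% to 100% of Sclerotome cells carried a tomato-td UMI, and the WT-sorted Sclerotome cells with such a UMI that were left out numbered 35. Of the 1830 cells, 5 barcodes occurred in more than 1 library. *Xist*, transcribed in female cells, was at 0, 676, 625 and 0 CPM in the 4 WT libraries of E9.5 and at 0 to 6.86 CPM in the null ones, so the WT libraries differed in it. Its part in the results was not tested. Methods name 2 embryos at E9.5, fewer than the 4 libraries of each genotype, so by that count some libraries of a genotype share an embryo. The labels speak of 1 embryo per tube, so this is not settled. The p-values therefore measure the spread between libraries, which may be technical, and may be too small for embryos.

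The E8.5 null library B stood apart. It had 30 cells, its tomato-td level was 155 CPM against 240 in library A, and *Grb10* stood at 313 CPM, close to the 310 and 332 CPM of the WT libraries and far from the 9.15 CPM of null library A. The same held for the cells of all types in that library, with 262 CPM of *Grb10*. Yet *Akr1e1* and *Stat3* had no UMI among its Sclerotome cells and *Pusl1* was at 7.93 CPM, close to the 8.21 CPM of null library A. At *H19* it was library A that stood apart. Over the cells of all types it had 246 CPM of *H19*, against 22.6 CPM in library B and 14.3 to 113 CPM in the E9.5 null libraries. The E8.5 WT libraries had 541 and 461 CPM. Counts of null against WT calls at E8.5 are given with and without each null library.

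The label was checked against the markers in the 64 cell types with at least 20 cells among the E9.5 WT host cells, as a description, since the label itself was drawn from expression. *Pax1* was at 149 CPM over all E9.5 WT Sclerotome cells, the highest level of any type, ahead of pharyngeal endoderm at 76.5 CPM and Dermomyotome at 25.3 CPM. *Pax9* was at 54.8 CPM, second to hindgut at 83.6 CPM. *Foxc2* at 91.2 CPM and *Meox2* at 107 CPM also had their highest level there, *Foxc2* just ahead of posterior somitic tissues at 79.1 CPM. *Sox9*, *Meox1*, *Tcf15* and *Twist1* did not. *Sox9*, at 250 CPM, was at rank 2 and *Twist1*, at 514 CPM, at rank 4. *Meox1*, at 325 CPM, and *Tcf15*, at 195 CPM, were at rank 3, below posterior somitic tissues and Dermomyotome. *Nkx3-2*, the third marker, was nearly absent at 1.36 CPM, and the highest level in any type was 1.40 CPM. Markers of the sister lineage were low, with *Pax3* at 8.35 CPM against 282 CPM in Dermomyotome. With every cell thinned to 10000 UMIs, 49.9% of E9.5 WT Sclerotome cells had a *Pax1* UMI, 33.9% a *Pax9* UMI and 1.52% an *Nkx3-2* UMI. Erythroid cells, which should lack all 3, gave 1.32%, 0% and 0%, where 0 of 380 cells allows a share of up to 0.789%, at median depths of 22601 UMIs against 29860. Unthinned, the Sclerotome shares were 62.7%, 63.2% and 3.8%. This limit covers counting error only. The label thus held at E9.5 by *Pax1* and *Pax9* but not by *Nkx3-2*. At E8.5 the markers were weaker in WT Sclerotome, with *Pax1* at 43.2 CPM, second of 62 types to thyroid primordium at 49.5 CPM, and *Pax9* at 15.4 CPM, at rank 5 and close to anterior somitic tissues at 14 CPM. After thinning, 24.0% of these cells had a *Pax1* UMI and 9.59% a *Pax9* UMI, against 0% and 0.191% of 1048 erythroid cells, where 0 allows up to 0.286%, at median depths of 21956 and 31385 UMIs (29.5% and 22.6% unthinned).

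Markers of other cell types were scarce. Their summed levels per library ranged from 0 to 3.75 CPM for the 6 notochord and floor plate genes (*Noto* was at 0 in every group), 3.54 to 15.9 CPM for 6 endothelial genes, 0.582 to 9.59 CPM for 6 erythroid genes, 3.96 to 15 CPM for 6 neural crest genes and 6.37 to 37.2 CPM for 6 neural tube genes. The limb and lateral plate list reached 52.9 to 112 CPM, most of it *Prrx1*, a gene of many mesenchymes. Epithelial genes gave 11.4 to 29.7 CPM. Between null and WT at E9.5 the endothelial sum was 6.42 to 10.2 CPM against 3.54 to 6.62 CPM, with *Kdr* at 4.11 ± 2.02 against 2.14 ± 0.68 CPM, and none of these markers passed the test. Their part in the results was not tested.

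Null cells contributed to Sclerotome at both stages, and the share of Sclerotome cells did not differ detectably between null and WT. At E9.5 the share was 6.33%, 6.82%, 9.72% and 5.82% of the cells of the WT libraries and 4.6%, 10.0%, 8.04% and 8.41% of the null libraries. The ranges overlapped, with means of 7.17 ± 1.75% and 7.76 ± 2.27% (SD, n = 4 libraries each; exact two-sided permutation test, p = 0.657). The edgeR quasi-likelihood test over 71 cell types gave a log2 difference of 0.09 ± 0.32 (SE; adjusted p = 0.996), and -0.056 to 0.28 with 1 library left out. At E8.5 the shares were 3.26% and 1.65% in WT and 4.30% and 2.62% in null libraries, with a log2 difference of 0.50 ± 0.42 over 68 types (edgeR, adjusted p = 1.0). This value was 1.09 without WT library A, 0.060 without WT library B, 0.12 without null library A and 0.86 without null library B.

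The number of Sclerotome cells per Dermomyotome cell was 4.24, 4.86, 3.85 and 3.77 in E9.5 WT libraries. In null libraries it was 4.23, 7.30, 5.82 and 7.22. Null libraries B, C and D thus lay above every WT library, and null library A within their range. Means were 4.18 ± 0.50 and 6.14 ± 1.44 (SD, n = 4 each; exact two-sided permutation test, p = 0.0857, 0.343 adjusted over 4 values; the smallest p possible is 0.0286). Dermomyotome cells numbered 46, 37, 48 and 61 in WT and 47, 33, 22 and 18 in null libraries. The mean atlas day of the nearest atlas cells was 9.06 ± 0.02 in WT and 9.07 ± 0.02 in null Sclerotome at E9.5 (exact permutation test, p = 0.6, adjusted 0.714). In WT Sclerotome this measure overlapped between the stages, at 9.06 and 8.93 in the E8.5 libraries and 9.04 to 9.09 in the E9.5 libraries. The E8.5 null libraries lay under every E9.5 null library. A delay of null cells within this label may thus not show in the measure, and nothing is read from the test.

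Of the sclerotome genes themselves, none passed the test between null and WT at E9.5. The label was drawn from expression, so a cell low in these genes could have received another label. The comparison therefore holds within labelled cells only. *Pax1* was at 159, 149, 167 and 116 CPM in the WT libraries and at 139, 114, 171 and 145 CPM in the null libraries. The groups covered the same range, and the log2 difference was -0.04 ± 0.16 (SE, edgeR, adjusted p = 0.95). Its sign turned when WT library C or null library B was left out. *Pax9* stood at 59.5, 54.4, 60.1 and 43.6 CPM in WT and at 50.9, 50.1, 74.7 and 52.9 CPM in null cells, a log2 difference of 0.09 ± 0.16 (edgeR, adjusted p = 0.89), whose sign turned without WT library D or null library C. *Nkx3-2* had too few UMIs to be tested, at 0.625 to 1.86 CPM in WT and 0.465 to 0.824 CPM in null libraries. All 9 further regulators on the list were tested, and 0 of 9 passed, where 0.244% of all genes did, so that nothing is read from this count. Their values had a median log2 difference of -0.22 against -0.0023 over the 10676 genes tested. Among them were *Twist1*, a factor of mesenchymal cells, at 0.03 ± 0.07, *Sox9*, needed for cartilage, at -0.32 ± 0.09 with 225 to 281 CPM in WT and 184 to 229 CPM in null libraries, and *Meox1*, a somite homeobox gene, at -0.34 ± 0.16 (edgeR, adjusted p = 0.89, 0.18 and 0.47). The plot of sclerotome genes by library shows the 4 groups.

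**Figure D1:**
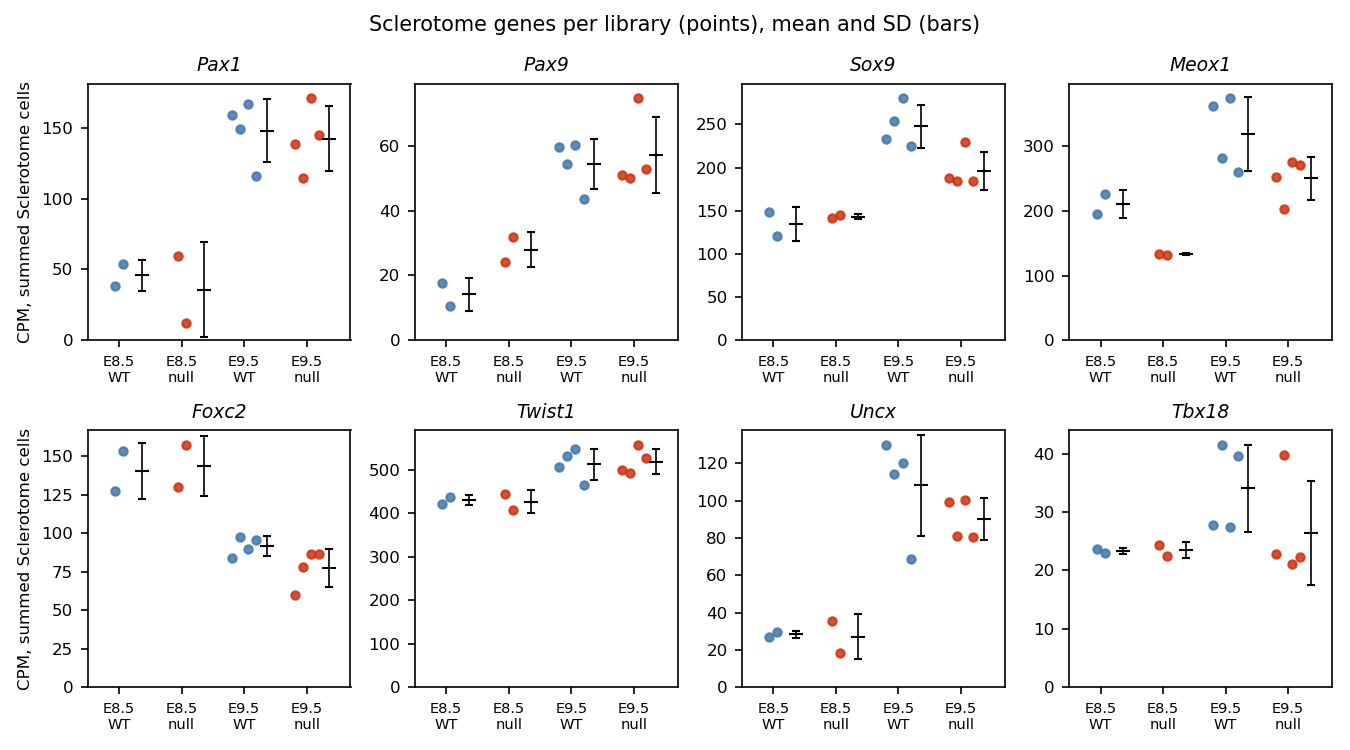
CPM of 8 sclerotome genes, *Pax1*, *Pax9*, *Sox9*, *Meox1*, *Foxc2*, *Twist1*, *Uncx* and *Tbx18*, summed over the Sclerotome cells of each library (points, blue WT, red *Stat3* null; y axes start at 0), with the group mean and SD (black). *Pax1* and *Pax9* are higher in all E9.5 than in all E8.5 libraries, and the null and WT points of E9.5 overlap in every panel.

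Between null and WT at E9.5, 26 of 10676 genes (0.244%) passed the edgeR test at an adjusted p under 0.05 with a log2 difference over 1 in size, 9 of them higher in null cells (0.0843%) and 17 lower (0.159%). *Grb10*, *H19*, *Cwc22*, *Zdbf2* and *Col5a2* were among them. Over the cells of all types at E9.5, *Cwc22* was also higher in every null library than in every WT library. *Grb10*, *H19*, *Stat3*, *Pusl1* and *Akr1e1* were also lower there, so these differences were not particular to Sclerotome. The CPM of 745 genes (6.98%) did not overlap between the 4 null and 4 WT libraries, and 94 genes (0.88%) passed without the fold threshold.

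*Grb10* (chromosome 11, 11930508 to 12038683, minus strand, GRCm38), an imprinted adaptor of growth factor receptors, was at 400, 376, 383 and 406 CPM in WT libraries. In null libraries it was at 7.91, 7.33, 6.86 and 3.86 CPM, so the groups were far apart. The log2 difference was -5.88 ± 0.11 (SE, edgeR, adjusted p = 5.3e-16). Thinned to equal depth, 96.5% of WT and 4.87% of null Sclerotome cells had a *Grb10* UMI (99.7% and 13.0% unthinned). WT erythroid cells at E9.5 also had it in 75% of cells, so detection was not particular to the somite.

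*H19* (chromosome 7, 142575529 to 142578143, minus strand), an imprinted non-coding RNA, was at 709, 753, 706 and 833 CPM in WT libraries and at 19.6, 7.33, 11 and 70.2 CPM in null libraries. Null library D was the highest of the null group and still below every WT library. The log2 difference was -4.82 ± 0.68 (edgeR, adjusted p = 0.039), a call that was lost when any of 7 of the 8 libraries was left out. Its neighbour *Igf2*, a fetal growth factor on the same imprinted domain, was at 278, 285, 252 and 282 CPM in WT and at 507, 488, 404 and 515 CPM in null libraries. The groups did not overlap and the log2 difference was 0.82 ± 0.07 (edgeR, adjusted p = 7.0e-07), under the fold threshold. *Igf2os*, annotated antisense to *Igf2*, was higher by 1.05 ± 0.15 (edgeR, adjusted p = 5.9e-04), a call lost without WT library C, and whether reads were split by strand in counting is not given in the sources used here.

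Of the other imprinted genes, *Zdbf2* (chromosome 1, 63273265 to 63314576, plus strand) was at 56.8, 58.3, 56.0 and 59.7 CPM in WT and at 142, 144, 118 and 112 CPM in null libraries, a log2 difference of 1.18 ± 0.08 (edgeR, adjusted p = 3.8e-08). It is imprinted in the mouse but was not on the list of 24 imprinted genes. *Impact* was at 39.8 ± 3.52 CPM in WT and 55.2 ± 6.12 CPM in null cells (SD, n = 4), with a log2 difference of 0.50 ± 0.09 (edgeR, adjusted p = 0.011), under the fold threshold. *Nnat* had 922, 790, 924 and 655 CPM in WT libraries and 502, 8.03, 813 and 352 CPM in null libraries. Null library B was almost without *Nnat* while null library C lay within the WT range and A and D below it, and no difference passed (-0.95 ± 0.98, edgeR, adjusted p = 0.79). The list had 22 genes tested, of which 2, *Grb10* and *H19*, were lower and 0 higher, beside 0.159% and 0.0843% of all genes. *Mest*, *Peg3* and *Gnas*, the highest of the list with WT means of 1231, 1140 and 1140 CPM, had log2 differences of 0.05, -0.06 and -0.05 and did not pass.

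**Figure D2:**
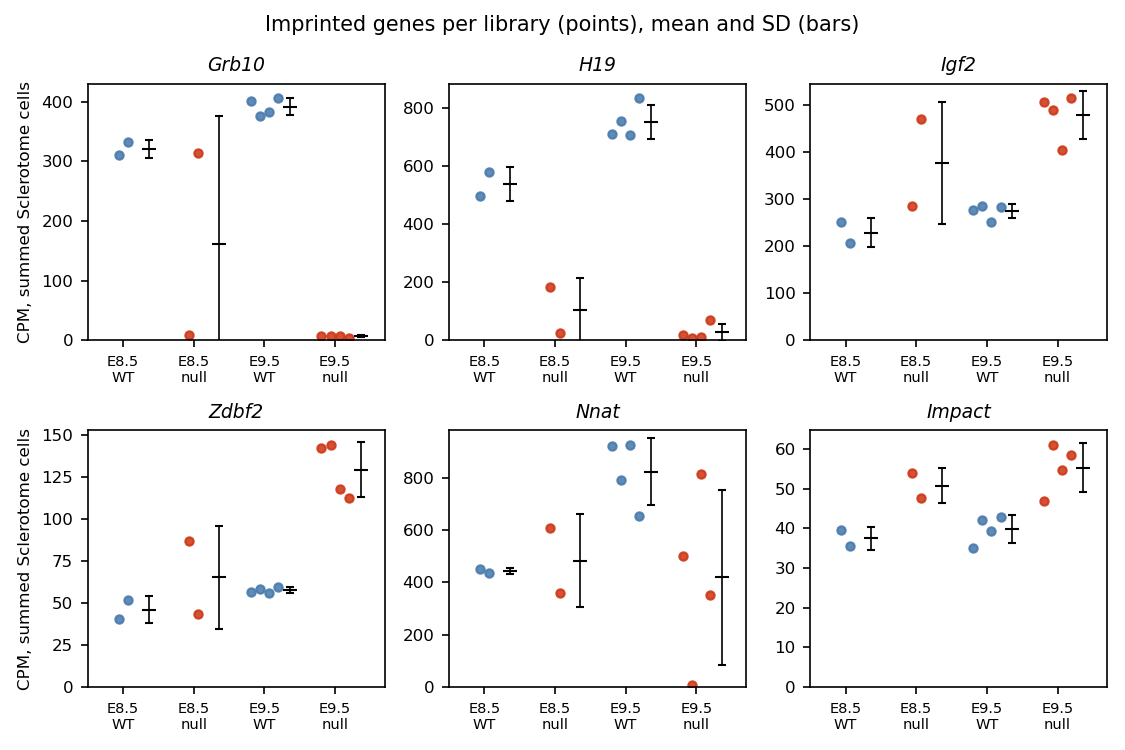
CPM of 6 imprinted genes in the Sclerotome cells of each library (points, blue WT, red *Stat3* null; linear y axes from 0, bars cut at 0) with group mean and SD (black). *Grb10* is near 0 in null libraries except the E8.5 null library B at 313 CPM, *H19* is below every WT library in all 6 null libraries, *Igf2* and *Zdbf2* are higher in all E9.5 null libraries, and *Nnat* is near 0 in E9.5 null library B alone.

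The other genes higher in null cells at E9.5 were led in level by *Cwc22* (chromosome 2, 77881159 to 77946375, minus strand), a splicing factor. It was at 40.1, 36.5, 37.8 and 42.1 CPM in WT libraries and at 187, 151, 170 and 151 CPM in null libraries. The groups were well apart, and the log2 difference was 2.09 ± 0.08 (edgeR, adjusted p = 3.8e-12). *Fam196b* had 97 UMIs over the null libraries and 1 UMI over the WT libraries, a ratio of 88.5 (exact 95% counting interval 15.5 to 3529). *Trhde*, a peptidase of thyrotropin-releasing hormone, was at 3.05 to 5.27 CPM in null and 0 to 0.417 CPM in WT libraries. *Arhgap8*, *Tc2n*, *AW011738* and *Dph7* followed with log2 differences of 2.25, 2.17, 1.67 and 1.34, at levels of at most 12.4 CPM. The calls of *Tc2n* and *AW011738* ended when any of 7 and any of 6 of the 8 libraries was left out.

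Among the 17 genes lower in null cells was *Stat3* itself (chromosome 11, 100885098 to 100939540, minus strand), at 5.20, 7.08, 5.20 and 5.0 CPM in WT libraries and at 2.31, 1.98, 1.37 and 2.89 CPM in null libraries. The groups did not overlap and the log2 difference was -1.37 ± 0.25 (edgeR, adjusted p = 0.0076). A 3′ library counts the end of the transcript, which lies outside the replaced exons, so this level does not check the deletion. The gene was low in Sclerotome to begin with, 28th in level among the 64 E9.5 WT cell types.

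*Col5a2* (chromosome 1, 45374321 to 45503282, minus strand), a chain of fibril-forming type V collagen, was at 36.9, 42.1, 30.5 and 39.4 CPM in WT and at 12.2, 18.6, 16.6 and 17.2 CPM in null libraries. The null libraries all lay under the WT ones, with a log2 difference of -1.16 ± 0.13 (edgeR, adjusted p = 4.7e-05). Of the extracellular matrix list 1 of 22 tested genes passed, *Col5a2* itself, and 0.244% of all genes did. *Vcan*, *Col3a1*, *Fbn2* and *Col4a1*, the highest of that list, had log2 differences of -0.06, -0.07, -0.31 and 0.0025 and did not pass.

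*Ngfr*, the low-affinity neurotrophin receptor, fell from 19.8 ± 3.7 CPM in WT to 8.34 ± 1.0 CPM in null cells (SD, n = 4; log2 difference -1.24, edgeR, adjusted p = 9.0e-05). *Akr1e1* and *Akr1b8*, aldo-keto reductases, were lower by log2 differences of -2.37 and -2.35, and *Ryr2*, an intracellular calcium channel, by -1.95. *Pusl1* was at 17.1, 21.0, 26.9 and 25 CPM in WT and at 5.60, 7.44, 8.38 and 8.20 CPM in null libraries, a log2 difference of -1.59 ± 0.16. The histone gene *Hist1h4i* (-1.86), the zinc finger genes *Zfp458* (-1.87) and *Zfp790* (-1.18), *Cldn34c1* (-1.59), *Msrb2* (-1.24) and *Mpi* (-1.13) were lower too. *Hist1h4i*, *Zfp458*, *Cldn34c1* and the *Akr1* genes have closely related copies, among which reads may have been split. *Cldn34c1* was no longer called when any of 5 libraries was left out.

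**Figure D3:**
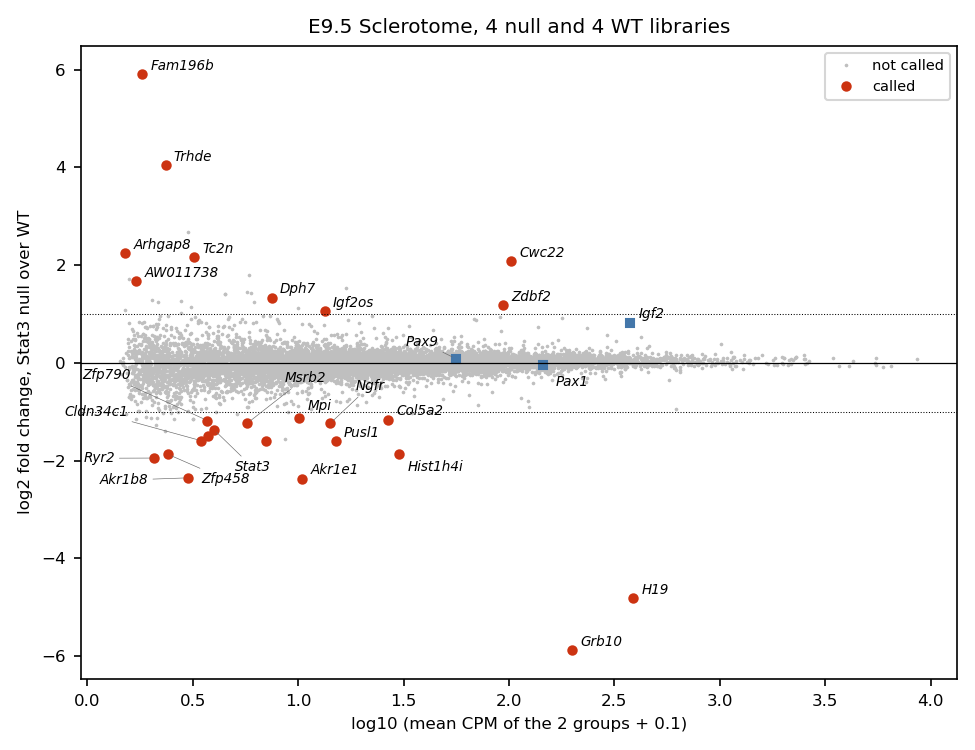
Log2 fold change (y axis, *Stat3* null over WT) against log10 of the mean CPM of the 2 groups plus 0.1 (x axis) for 10676 genes in E9.5 Sclerotome; red, the 26 called genes; blue squares, *Pax1*, *Pax9* and *Igf2*; dotted lines, a log2 change of 1. *Grb10* and *H19* lie at -5.88 and -4.82 among well expressed genes, *Cwc22* at 2.09, and *Pax1* and *Pax9* on the zero line.

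Signalling genes by role were as follows at E9.5. Of the STAT3 list, 17 of 20 genes were tested and only *Stat3* passed. *Mcl1*, an anti-apoptotic target, was at 156 ± 2.53 CPM in WT with a log2 difference of 0.06, the kinase *Pim1* at 0.22, the shared cytokine receptor chain *Il6st* at -0.01, and *Socs3*, the feedback inhibitor, at 0.20 ± 0.17 (edgeR, adjusted p = 0.71), with 7.31 to 9.85 CPM in WT and 7.79 to 12.2 CPM in null libraries. Of the hedgehog genes, 0 of 3 ligands reached the filter (*Shh* at 0.68 ± 0.33 CPM in WT) and 0 of 7 receptor genes and 0 of 5 intracellular genes passed. *Ptch1*, both receptor and target, was at 151 to 218 CPM in WT and 145 to 179 CPM in null libraries (log2 difference -0.22 ± 0.10, edgeR, adjusted p = 0.43), and *Gli1*, a target and effector, at 26.1 to 35.5 and 21.1 to 26.7 CPM (-0.33 ± 0.11, 0.22). Against the 0.244% of all genes that passed, lists of this size would hold few or no calls, and so nothing is read from these counts, which were 0 of 18 for BMP, 0 of 20 for Wnt, 0 of 11 for Notch, 0 of 15 for FGF and PDGF, 0 of 11 for retinoic acid, 0 of 11 for cartilage, 0 of 29 for Hox, 0 of 20 for S phase, 0 of 23 for G2 and M phase and 0 of 10 for immediate early and stress genes. Medians of these lists lay between -0.11 and 0.07.

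The upstream sequence of the called genes was searched for TTCNNNGAA, the core to which STAT factors bind. This motif reads the same on both strands, and the windows ran from 250 bases before to 50 bases after a RefSeq start (GRCm38.p6). It occurred in 8.30% of all 32851 promoters, in 1 of 8 promoters of genes higher in null cells at E9.5 and in 2 of 13 promoters of genes lower there. The 3 matches among called genes and that of *Socs3* are shown to let the sites be read, with the motif in capitals and each sequence 5′ to 3′ on the strand of its gene. *Zdbf2* has a second promoter in the table, without a match. A match is a run of letters and no evidence of binding.
Zdbf2, chr1:63200108-63200154, plus strand, motif 242 bases before the start: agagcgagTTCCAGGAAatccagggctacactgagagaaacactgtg
Zfp790, chr7:29815934-29816002, plus strand, motif 108 bases before the start: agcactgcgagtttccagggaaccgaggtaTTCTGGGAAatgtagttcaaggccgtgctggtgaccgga
Zfp458, chr13:67269162-67269230, minus strand, motif 206 bases before the start: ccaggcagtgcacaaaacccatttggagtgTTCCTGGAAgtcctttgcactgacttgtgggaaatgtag
Socs3, chr11:117969482-117969550, minus strand, motif 154 bases before the start: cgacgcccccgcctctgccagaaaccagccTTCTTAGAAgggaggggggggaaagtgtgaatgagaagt

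The *Zdbf2* window, the one beside a gene that was higher in null cells, lies upstream of the gene span given above. *Zfp790* was lower in null cells and stood at 5.01 ± 0.68 CPM in WT and 2.21 ± 0.51 CPM in null libraries (SD, n = 4). The motif searched for GLI factors, GACCACCCA on either strand, was in 0.253% of all promoters and in none of those of called genes of any comparison.

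At E8.5, 6 of 8466 genes (0.0709%) passed between null and WT, 2 higher (0.0236%) and 4 lower (0.0472%). The lower genes were *Hist1h4i*, at 55.5 and 41.2 CPM in WT and 13.8 and 21.1 CPM in null libraries (log2 difference -1.67 ± 0.25, edgeR, adjusted p = 3.8e-04), *Hist1h2bj* (-1.39 ± 0.24), *Pusl1*, at 23.7 and 28.8 CPM against 8.21 and 7.93 CPM (-1.62 ± 0.31, edgeR, adjusted p = 0.0086), and *Akr1e1*, at 25 and 23.0 CPM against 7.27 and 0 CPM (-2.0 ± 0.40). *Rdm1*, a recombination gene, was higher at 26.5 and 26.4 CPM against 10.0 and 8.63 CPM (1.49 ± 0.30), and *Selenop*, a selenium transport protein, at 50.4 and 81.9 CPM against 29.1 and 22.1 CPM (1.18 ± 0.24). *Hist1h4i*, *Pusl1* and *Akr1e1* had also passed at E9.5, in the same direction. Leaving out 1 library left a group with 1 library, assumed to vary like the other group, so these fits are weak evidence of stability. *Hist1h4i* alone of the 6 was called in each of them, while the calls of *Hist1h2bj*, *Akr1e1*, *Pusl1*, *Selenop* and *Rdm1* ended without any of 1, 2, 2, 2 and 3 libraries. The *Akr1e1* value was -8.02 without null library A, which leaves a null library with no UMI of it, so that this fitted value depends on the prior count and is no bound. The count was 21 without null library B, 36 without null library A, 3 without WT library B and 9 without WT library A, and DESeq2 called 0. The lists of sclerotome, hedgehog, BMP, Wnt, Notch, STAT3 and Hox genes had 0 calls each. *Meox1*, of the sclerotome regulators, passed the adjusted p as lower in null cells, as 0.154% of genes passed it, but not the fold threshold. It stood at 206 CPM over all WT and 134 CPM over all null Sclerotome cells of E8.5. Its log2 difference ranged from -0.73 to -0.54 with 1 library left out.

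With only 2 libraries a group, 34.8% of genes did not overlap between null and WT at E8.5, so a gap between groups says little there. *Pax1* was at 38.2 and 53.7 CPM in WT and 59.3 and 11.9 CPM in null libraries, *Pax9* at 17.7 and 10.5 CPM against 24.2 and 31.7 CPM, and neither passed (edgeR, adjusted p = 1.0 and 0.73). *H19* was at 496 and 579 CPM in WT and 182 and 25.1 CPM in null libraries, and *Cwc22* at 64.2 and 66.2 CPM against 106 and 116 CPM (log2 difference 0.77 ± 0.15, edgeR, adjusted p = 0.013, under the fold threshold). *Stat3*, at 4.55 and 5.75 CPM in WT and 1.88 and 0 CPM in null libraries, was too low to be tested.

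From E8.5 to E9.5, *Pax1*, *Pax9* and 14 Hox genes passed the test as higher in WT Sclerotome. Of 10845 genes 219 passed (2.02%), 142 higher at E9.5 (1.31%) and 77 lower (0.71%), and 108 passed without E8.5 WT library A and 110 without library B. *Pax1* rose from 38.2 and 53.7 CPM to 116 to 167 CPM (log2 difference 1.61 ± 0.21, edgeR, adjusted p = 0.0024), and *Pax9* from 17.7 and 10.5 CPM to 43.6 to 60.1 CPM (1.69 ± 0.22, edgeR, adjusted p = 2.2e-04). Every E9.5 library lay above every E8.5 library for both, as it or its reverse did for 40.9% of the genes tested, and the *Pax1* call was lost without E8.5 WT library A. Stage was not separate from the library sets, so any difference in how the stages were prepared cannot be told apart from it. The label was drawn from expression at each stage, so the stage comparisons in WT and null cells hold within labelled cells only. Among 62 cell types of E8.5 WT cells, Sclerotome was at rank 2 for *Pax1* and rank 5 for *Pax9*. The mean atlas day also overlapped between the WT libraries of the stages, as given above. The part of label transfer in these rises was not tested.

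Of the 9 further regulators, only *Zic1*, a zinc finger gene of the dorsal sclerotome, passed both thresholds, from 9.55 and 3.84 CPM to 81.5 to 141 CPM (3.75 ± 0.59, edgeR, adjusted p = 0.034), a call that was lost without any of 3 of the 6 libraries. *Sox9* rose from 149 and 121 CPM to 225 to 281 CPM (0.71 ± 0.12, edgeR, adjusted p = 0.0022), under the fold threshold, where 7.55% of genes passed on the adjusted p alone. *Foxc2*, a forkhead factor of somites, fell from 127 and 153 CPM to 83.7 to 97.7 CPM (-0.74 ± 0.10; edgeR, adjusted p = 1.1e-04), and *Tcf15*, a factor of the epithelial somite, from 246 and 306 CPM to 159 to 223 CPM (-0.64 ± 0.14; edgeR, adjusted p = 0.028), both under the fold threshold too. *Twist1* was at 421 and 437 CPM at E8.5 and 465 to 546 CPM at E9.5 (0.11 ± 0.08). Among cartilage genes 1 of 10 was called, beside 1.31% of all genes higher and 0.71% lower, namely *Sox5*, a partner of *Sox9*, with 12.3 and 6.71 CPM at E8.5 and 32.5 to 38.8 CPM at E9.5 (1.65 ± 0.22).

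Hox genes set position along the body axis. Of the 39 Hox genes 29 were tested in WT cells, and 14 were higher and 0 lower at E9.5, beside 1.31% and 0.71% of all genes, with a median log2 difference of 3.04 against 0.02 over all genes tested. *Hoxb8* had 3 UMIs at E8.5 and 1334 at E9.5, a ratio of CPM of 57.6 (exact 95% counting interval 19.7 to 280), and *Hoxc6* had 1 and 1237, a ratio of 160 (28.7 to 6330). *Hoxd8* and *Hoxa6* had no UMI at E8.5, so they were at least 5.52-fold and at least 3.54-fold higher at E9.5 (against 3 counts over the group). The calls of *Hoxc6*, *Hoxd8* and *Hoxa6* were lost without E8.5 WT library A or B, and that of *Hoxb9* without any of 4 of the 6 libraries. The count of Hox genes higher was 9 without E8.5 WT library A and 10 to 17 without any other library. *Hoxb4*, of an anterior paralogue group, rose from 40.0 and 27.8 CPM to 87.2 to 105 CPM (1.27 ± 0.14; edgeR, adjusted p = 1.1e-05).

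Summed by paralogue group, groups 6 to 9 were at 0 to 3.84 CPM in E8.5 and at 58.3 CPM or more in E9.5 WT libraries, while group 4 was expressed at both stages. Group 4 went from 58.2 ± 10.4 to 189 ± 16.9 CPM, group 6 from 2.58 ± 0.43 to 71.3 ± 14.2 CPM, group 8 from 1.82 ± 2.57 to 122 ± 36.8 CPM and group 9 from 3.06 ± 1.10 to 156 ± 65.2 CPM (SD, n = 2 and 4 WT libraries). Group 1 went the other way, from 22.2 ± 1.15 to 15.5 ± 0.77 CPM, and group 10 reached 13.3 ± 19.5 CPM with 42.4 CPM in the highest library. Group 10 was at 2.71 to 4.71 CPM in the other E9.5 WT libraries, group 11 at up to 3.69 CPM, and groups 12 and 13 stayed under 1 CPM. In null Sclerotome groups 4, 6, 8 and 9 were at 183 ± 12.1, 57.2 ± 13.9, 94.9 ± 28.7 and 123 ± 47.1 CPM at E9.5. Between null and WT at E9.5, 7 of the 29 tested Hox genes had a positive log2 difference, beside 5274 of all 10676 genes. The list median was -0.10 against -0.0023 over all genes. No Hox gene passed the test, so nothing is read from this count.

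**Figure D4:**
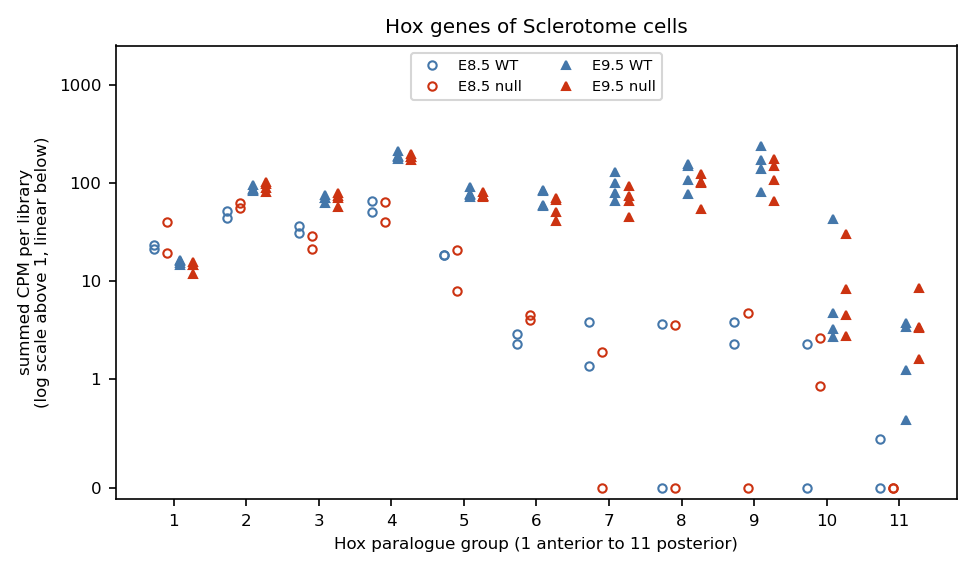
CPM summed over the Hox genes of each paralogue group (x axis, 1 anterior to 11 posterior) in the Sclerotome cells of each library (open circles E8.5, filled triangles E9.5, blue WT, red *Stat3* null; y axis logarithmic above 1 and linear below). Groups 6 to 9 are at most 4.69 CPM in all E8.5 libraries and at least 41.2 CPM in all E9.5 libraries of both genotypes, while group 1 is lower at E9.5.

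Members of the signalling lists were read against the 1.31% of all genes that were higher and the 0.71% that were lower. Of the BMP list 3 of 18 were higher and 1 lower. *Bmp4* went from 5.91 and 9.59 CPM to 16.7 to 30.1 CPM (1.64 ± 0.37), *Bmp5* (1.08) and the receptor *Bmpr1b* (1.82) were higher too, and *Fst*, follistatin, which binds activin and BMP ligands, fell from 271 and 257 CPM to 61.5 to 77.3 CPM (-2.10 ± 0.10; edgeR, adjusted p = 5.8e-11). Of the Notch list 2 of 10 were higher, the target genes *Heyl* (1.89) and *Hey1* (1.32). Of the FGF and PDGF list 2 of 15 were higher, *Fgfr2* (1.04) and the target *Etv5* (2.23), which is also on the tendon list. The calls of *Bmp4*, *Hey1* and *Etv5* were lost without E8.5 WT library A or B, those of *Bmp5* and *Fgfr2* without any of 3 of the 6 libraries, and that of *Bmpr1b* without E8.5 WT library A, with values from 0.967 to 2.58 over the libraries left out. Without E8.5 WT library A *Bmp5* was at 0.565 and *Heyl*, which stayed called, at 3.16.

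Of the extracellular matrix list, beside the same shares of all genes, 2 of 22 were higher, *Fbln2* (2.01, and 3.19 without E8.5 WT library A) and *Nid1* (1.25), and 1 lower, the small proteoglycan *Lum*, from 143 and 123 CPM to 57.5 to 88.6 CPM (-1.08 ± 0.18), a call lost without any of 3 libraries. The hedgehog receptor and intracellular lists had 0 calls in WT cells. *Ptch1*, at 251 and 270 CPM at E8.5 and 151 to 218 CPM at E9.5, was lower by -0.65 ± 0.12 (edgeR, adjusted p = 0.0070), and its partners *Smo*, the signal transducer, and *Gas1*, a co-receptor, went from 70.5 and 81.5 to 96.8 to 114 CPM and from 64.6 and 67.1 to 90.6 to 115 CPM. *Gas1* passed the adjusted p (0.015) and *Smo* did not (0.069). *Aldh1a2*, which makes retinoic acid in somites, fell by -0.97 ± 0.09 (edgeR, adjusted p = 1.8e-06), just under the fold threshold.

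*Wfdc21*, given below, had the largest fall in WT cells. Next were *Ndufa4l2* (-3.45), *Gfra2* (-2.87), *Car4* (-2.69), *Clu* (-2.59), *Lyrm7* (-2.55), *Aplnr* (-2.52), the natriuretic peptide receptor *Npr3* (-2.49), *Irx1* (-2.43), *Fbxo32* (-2.39), *Dact2* (-2.34) and *Etv2* (-2.31). *Car4*, a carbonic anhydrase, was at 19.6 and 19.2 CPM at E8.5 and at 2.23 to 4.84 CPM at E9.5, with no overlap. *Wfdc21* had 15 UMIs at E8.5 and 1 at E9.5, a ratio of 116 (exact 95% counting interval 17.8 to 4878). *Aplnr*, *Etv2* and *Kdr* (-1.76) are genes of early endothelial and haematopoietic progenitors, and the 6 endothelial markers summed to 8.63 to 9.55 CPM at E8.5 and 3.54 to 6.62 CPM at E9.5 in WT cells, with *Kdr* the only called marker and 3 of the 6 at 0 in the E8.5 libraries. The *Kdr* and *Dact2* calls were lost without E8.5 WT library A or B, those of *Gfra2* and *Lyrm7* without A, and those of *Clu*, *Aplnr*, *Fbxo32* and *Etv2* without B, where *Fbxo32* ranged from -3.40 to -1.05 over the libraries left out. The part of such cells in these falls was not tested. Rises from no UMI at E8.5 included *Pou3f3*, at least 5.44-fold, *Hic1*, at least 4.62-fold, *Wfdc1*, at least 5.57-fold, and *Wt1*, at least 2.98-fold, a gene of the intermediate mesoderm list. Leaving out any 1 of 1, 2, 4 and 5 libraries, E8.5 WT library A among them in each case, ended these 4 calls in that order.

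The same stage comparison within null cells gave 218 of 10806 genes (2.02%), 130 higher (1.2%) and 88 lower (0.814%), and 136 without E8.5 null library B. Of these, 93 were also called in WT cells (42.7% of the null and 42.5% of the WT calls), all 93 in the same direction. The comparisons share no library, but null and WT cells were sorted from the same chimeric embryos, so the comparisons are not independent. *Uncx* rose from 35.6 and 18.5 CPM to 80.3 to 100 CPM (1.35 ± 0.19; edgeR, adjusted p = 6.0e-04) and *Meox2*, a somite homeobox gene, from 32.4 and 13.2 CPM to 81.3 to 120 CPM (1.67 ± 0.34), though this call was lost without any of 3 libraries. Without E8.5 null library A the values were 2.12 for *Uncx* and 2.75 for *Meox2*. Both were also higher at E9.5 in WT cells, though not called there. *Uncx* went from 26.8 and 29.7 CPM to 68.9 to 130 CPM, and *Meox2* from 48.1 to 107 CPM over all WT Sclerotome cells. *Pax9* rose by 0.99 ± 0.24 (edgeR, adjusted p = 0.037), under the fold threshold, as part of the 6.44% of genes that passed on the adjusted p alone, and *Pax1*, with 59.3 and 11.9 CPM at E8.5, had a log2 difference of 1.43 ± 0.45 that did not pass (edgeR, adjusted p = 0.19).

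Of the Hox genes 15 of 29 tested were higher in null cells at E9.5 and 1 was lower, beside 1.2% and 0.814% of all genes, but 7 were higher without E8.5 null library A and 11 without library B. Genes without a UMI in E8.5 null cells included *Wt1*, at least 6.22-fold higher at E9.5, *Pde9a*, at least 5.18-fold, both calls lost without E8.5 null library A, and *Tfap2b*, at least 4.21-fold, the last a neural crest marker whose call was lost without any of 5 libraries. *Ptch1* fell from 265 and 300 CPM to 145 to 179 CPM (-1.0 ± 0.10; edgeR, adjusted p = 2.0e-06), on the fold threshold, so that the call was lost without any of 4 libraries. *Socs2*, a feedback inhibitor of cytokine signalling, fell from 29.8 and 30.4 CPM to 8.54 to 13.4 CPM (-1.55 ± 0.19; edgeR, adjusted p = 5.2e-05). *Socs2* also fell in WT cells, by -0.99 ± 0.24 (edgeR, adjusted p = 0.017), under the fold threshold. *Col5a2* was lower by -1.02 ± 0.19 in null cells at E9.5, from 28.6 and 33.0 CPM at E8.5, and had a log2 difference of 0.05 ± 0.19 in WT cells. The proteoglycan link gene *Hapln1* (-2.29), *Lum* (-1.16), *Dcn* (-1.33), and the keratins *Krt8* (-1.36) and *Krt18* (-1.16), markers of the epithelial list, were lower as well. Leaving out any of 3 libraries ended the *Col5a2* call, any of 4 those of *Dcn* and *Krt18*, E9.5 null library A that of *Hapln1* and E8.5 null library A that of *Krt8*. *Cbr3* (-2.91) and *Car4* (-3.21) were lower still, at adjusted p-values of 5.7e-08 and 2.7e-06 (edgeR).

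A call at 1 stage does not show a difference between stages, so the difference itself was tested. Of 11205 genes 1 (0.00892%) had a null effect that differed between E9.5 and E8.5 (edgeR, interaction term), while 495 had an unadjusted p under 0.05. It was *Cwc22*, whose null excess was larger at E9.5 by 1.31 ± 0.16 on the log2 scale (adjusted p = 1.9e-04). WT cells went from 64.2 and 66.2 CPM at E8.5 to 36.5 to 42.1 CPM (-0.88 ± 0.12; edgeR, adjusted p = 9.4e-05), and null cells from 106 and 116 CPM to 151 to 187 CPM (0.44 ± 0.11; edgeR, adjusted p = 0.019), both under the fold threshold. The pattern was not particular to Sclerotome. Over the cells of all types *Cwc22* was at 59.0 and 62.9 CPM in E8.5 WT and 36.7 to 38.5 CPM in E9.5 WT libraries. In null libraries it was at 90.6 and 129 CPM at E8.5 and 154 to 174 CPM at E9.5. In Sclerotome, *Col5a2* (-1.07 ± 0.28) did not pass the interaction test (edgeR, adjusted p = 0.98).

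The null effect was also compared with that in Dermomyotome, the part of the somite that gives muscle and dermis, within the same 8 libraries of E9.5. Of 10395 genes 1 differed (0.00962%, edgeR with library as a block), while 471 had an unadjusted p under 0.05. That call was lost without WT library B or D or null library A or C, and DESeq2 did not make it. In Dermomyotome *Grb10* was at 385 to 462 CPM in WT and 10.3 to 40.0 CPM in null libraries, and *Cwc22* at 26.7 to 41.3 and 137 to 184 CPM, and neither gene passed the test of a difference between the types (edgeR, adjusted p = 1.0 each).

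Within Sclerotome, *Uncx* and *Tbx18* marked separate cells. Of the E9.5 cells, each thinned to 10000 UMIs, 263 WT and 209 null cells had a *Uncx* UMI alone, 176 and 154 a *Tbx18* UMI alone, and 348 and 331 neither. Both were found in 3 WT cells, where independent detection would give 60.3, and in 4 null cells, where it would give 48.2. Every library held both classes, with 54 to 76 *Uncx* cells and 35 to 61 *Tbx18* cells in WT and 32 to 65 and 20 to 70 in null libraries. Among WT erythroid cells at E9.5, 2.37% had a *Uncx* and 1.05% a *Tbx18* UMI, against 33.7% and 22.7% in Sclerotome (40.5% and 39.5% unthinned). Neither gene was particular to Sclerotome. In E9.5 WT cells *Uncx* was at 127 CPM in posterior somitic tissues, 122 CPM in Dermomyotome and 109 CPM in Sclerotome. *Tbx18* was highest in epicardium, at 116 CPM against 33.2 CPM in Sclerotome. The log2 ratio of *Uncx* to *Tbx18* was 1.65 ± 0.66 in WT and 1.81 ± 0.55 in null libraries (SD, n = 4 each; exact two-sided permutation test, p = 0.714, adjusted 0.714).

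The classes were set beside each other after their values had been seen and from the cells' own readout, so what follows is a description with no test. A gene counted as on a side if its CPM differed the same way in 8 of 8 E9.5 libraries and its mean log2 difference exceeded 1. Of 5993 genes with at least 20 CPM in either class, 14 (0.234%) lay on the *Uncx* side and 78 (1.3%) on the *Tbx18* side. Of these, 6 of the 14 and 47 of the 78 were under 20 CPM in the other class and so passed the minimum through the class where they were high, and nothing is read from the counts.

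On the *Uncx* side were *Meox1*, at 441 ± 73.4 CPM in *Uncx* cells and 136 ± 39.1 CPM in *Tbx18* cells (SD, n = 8 libraries), *Meox2* (log2 difference 1.12), *Tcf15* (1.02) and *Pax1*, at 218 and 100 CPM (1.19 ± 0.64). *Pcp4*, *Plxna2*, *Cited1*, *Mycn* and 6 Hox genes, led by *Hoxa5* (1.61), completed it. Of these, *Plxna2*, *Cited1*, *Hoxa5*, *Hoxb5*, *Hoxb6* and *Hoxb7* were under 20 CPM in *Tbx18* cells. They passed the minimum only through the *Uncx* class, so nothing is read from their side. *Pax9*, at 83.7 and 45.5 CPM, was higher in *Uncx* cells of all 8 libraries by 0.84, short of the limit. *Sox9* (0.05) and *Twist1* (0.22) were at like levels in both classes. In E9.5 WT cells *Uncx*, *Meox1* and *Tcf15* were higher in posterior somitic tissues and Dermomyotome than in Sclerotome. The part of such cells was not tested.

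On the *Tbx18* side, *Vcan*, a large proteoglycan, was at 756 CPM in *Tbx18* cells and 264 CPM in *Uncx* cells (-1.50 ± 0.18), *Sparc* at 179 and 48.4 CPM (-1.79), and the Wnt inhibitor *Sfrp1* at 157 and 36.0 CPM (-1.93). *Col1a1*, *Col5a2*, *Lum* and *Fbln2* also lay on this side. *Ahnak* (-2.87), *Tbx1* (-2.76), *Myl9* (-2.60), *Scube1* (-2.40), *Acta2* (-2.16), *Six2* (-2.07), *Vim* (-1.75) and *Prrx1* (-1.76) were there as well. Of the genes named here, *Ahnak*, *Tbx1*, *Myl9*, *Scube1*, *Acta2*, *Six2*, *Col5a2* and *Fbln2* were under 20 CPM in *Uncx* cells. They passed the minimum only through the *Tbx18* class, so nothing is read from their side. *Ptch1* was at 252 CPM in *Tbx18* and 147 CPM in *Uncx* cells, lower in the *Uncx* cells of 8 of 8 libraries (-0.73). *Prrx1* is on the limb and lateral plate list and moved with the *Tbx18* class, and the part of such cells was not tested. The mean atlas day was 9.0 for *Uncx* and 9.12 for *Tbx18* cells, and median depths were 35360 and 28764 UMIs before thinning.

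**Figure D5:**
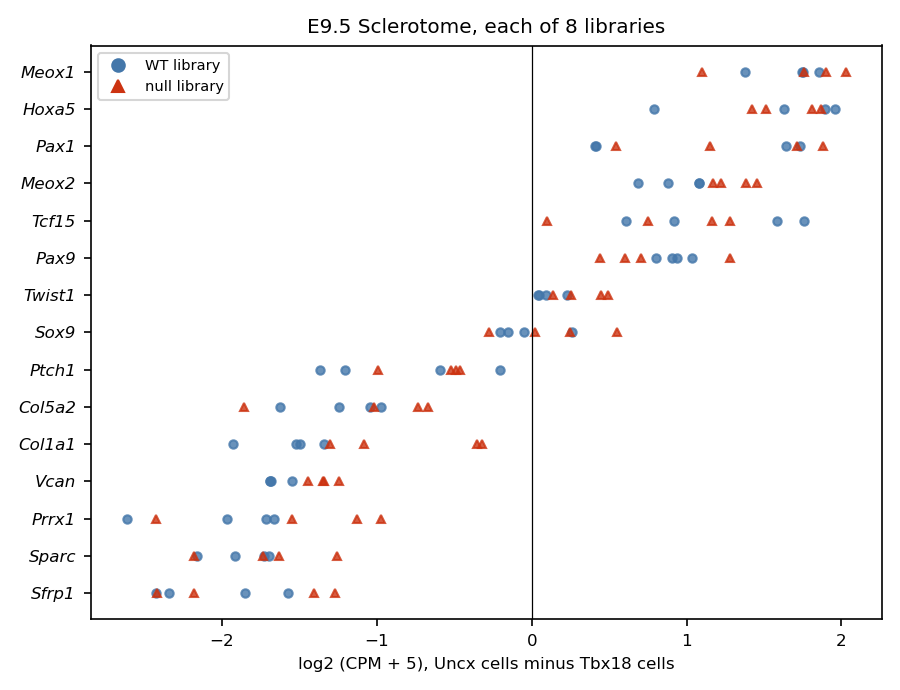
Difference in log2 (CPM + 5) between *Uncx* cells and *Tbx18* cells (x axis) for 15 genes (y axis) in each E9.5 library (blue circles WT, red triangles *Stat3* null). Cells were classed after thinning each to 10000 UMIs, and the CPM are of unthinned counts. *Hoxa5* and *Col5a2* passed the minimum level only through the class where they are high. *Meox1*, *Hoxa5*, *Pax1*, *Meox2*, *Tcf15* and *Pax9* lie right of 0 in all 8 libraries, *Sox9* straddles 0, and *Col5a2*, *Vcan*, *Prrx1*, *Sparc* and *Sfrp1* lie left of 0 in all 8.

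*Pax1* cells overlapped more with *Uncx* than with *Tbx18*. Of E9.5 WT cells with a *Pax1* UMI after thinning, 48.0% also had a *Uncx* UMI, against 19.4% of cells without *Pax1*. For *Tbx18* the shares were 16% and 29.3%. Null cells gave 48.9% and 13.7% for *Uncx* and 11.7% and 32.6% for *Tbx18*. Co-detection of *Pax9* among *Pax1* cells was 44.7% in WT and 49.2% in null cells, against 23.2% and 24.4% of cells without *Pax1*.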

How the data were processed

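Sorted cells of 16 whole-embryo libraries (10x Genomics 3′ v3, polyA) had been aligned by the authors with Cell Ranger to mm10 with GRCm38.p5 gene models and a Tomato-Td sequence. The deposited matrix held raw UMI counts of 29453 genes in 41832 cells that had passed the authors' limits on reads, genes, and mitochondrial and ribosomal shares, and the deposited cell table gave genes per cell as counts, the mitochondrial share in percent and the cell type label's score as a fraction of neighbours. Doublets were the 3395 cells that the authors had called by scds, and these were left out. Of 37351 distinct barcodes 488 occurred in more than 1 library. Library names matched no sample label beyond stage and tdTomato sort, so each library was placed in its group only. The labels speak of 1 embryo per tube at E9.5 and the methods of 2 embryos in all, so which libraries share an embryo is not settled. The study's own model had embryo pool as a term beside genotype, which was not fitted here since no library name could be tied to a pool. The strandedness of the counting and the number of *Stat3* null lines were not given in the sources used here.

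UMIs of the Sclerotome cells were summed per library with more than 15 cells, after *Xist*, *Tsix*, tomato-td, Y-linked, mitochondrial, ribosomal protein and haemoglobin genes and unnamed gene models were set aside, as in the study, while imprinted genes stayed in (21276 genes). Null versus WT and E9.5 versus E8.5 were tested with edgeR 4.0.16 (R 4.3.3; TMM, filterByExpr, quasi-likelihood test, Benjamini-Hochberg adjustment over all genes tested), with a call at an adjusted p under 0.05 and an absolute log2 fold change over 1. Alternatives were DESeq2 1.42.0, limma-voom (limma 3.58.1), no filter, no fold threshold, thinned numbers of cells and each library left out (at E8.5 this leaves 1 library in a group, assumed to vary like the others). The edgeR test gives no SE. Each SE beside an edgeR value is the absolute log2 difference divided by the square root of the F statistic. Single values were compared by exact permutation tests (scipy 1.17.1). For shares of cells with a UMI every cell was thinned to 10000 UMIs. The scripts were tested on simulated counts first. The named genes were the markers, *Stat3* and tomato-td, up to 12 genes per direction and comparison by fold change among called genes whose groups did not overlap, every called gene of a fixed list and up to 4 genes per list by level. *Igf2*, *Impact*, *Nnat*, *Socs3*, *Foxc2*, *Xist*, *Ngfr*, *Mpi*, *Msrb2*, *Zfp790* and the genes of the *Uncx* and *Tbx18* classes were chosen after their values were seen. The members and all gene lists were chosen with earlier results of these data known. A few genes that the rule names are not reported here. Gene coordinates are those of the GENCODE vM21 annotation (GRCm38).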

Additional observations from a re-analysis of the deposited data

Results flagged for a closer look

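In 12 of the 207 groups of 4 libraries that were checked, 1 library lay far from the other 3, with a gap to the nearest library above Dixon's 95% critical value. Chance gives about 1 in 20 such groups, or about 10 of the 207, so the count is near the chance number, and the values below are given as a record only. In E9.5 WT Sclerotome, *Akr1e1* was at 28.0 CPM in library C and at 13.2 to 14 CPM in the others, and *Stat3* at 7.08 CPM in library B and at 5.0 to 5.20 CPM elsewhere. Among Hox genes *Hoxb3* was at 44.3 CPM in WT library C against 41.1 to 41.5 CPM, *Hoxb5* at 39.4 CPM in library A against 27.5 to 28.6 CPM, and *Hoxa4* at 20.6 CPM in library A against 10.4 to 12.1 CPM. *Nid1*, a basement membrane gene, was at 26.5 CPM in WT library C against 34.4 to 35.4 CPM. *Tfap2b* was at 7.91 CPM in WT library D against 2.92 to 3.34 CPM.

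In E9.5 null Sclerotome, *Pax9* was at 74.7 CPM in library C and 50.1 to 52.9 CPM in the others, and *Sox9* was high in the same library, at 229 CPM against 184 to 188 CPM. *Ptch1* was at 179 CPM in null library B against 145 to 148 CPM, and *Tbx18* at 39.8 CPM there against 21.0 to 22.7 CPM. *Hoxb5* was at 23.5 CPM in null library D against 33.8 to 34.9 CPM.

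The null effect on *Cwc22* differed between stages by a log2 value of 1.31 (edgeR interaction, adjusted p = 1.9e-04). Its levels over the cells of all types moved the same way.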

How the results depend on the processing

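Null versus WT at E9.5 gave 26 calls, 52 with no filter, 94 with no fold threshold, 29 with DESeq2 and 22 to 30 with 1 library left out. At E8.5 the 6 calls became 0 with DESeq2 (69 genes at an unadjusted p under 0.05, against 461 in edgeR), 15 with no filter, 13 with no fold threshold, 12 without the null cells that lacked a tomato-td UMI, 1 with all libraries thinned to the same number of cells, 1 with all E8.5 and E9.5 libraries fitted together, and 3 to 36 with 1 library left out. Stage in WT cells gave 819 genes with no fold threshold and 108 to 235 with 1 library left out, and in null cells 379 with no filter, 696 with no fold threshold and 136 to 240. The stage interaction gave 2 with no filter and 1 to 3 with 1 library left out. The Dermomyotome interaction gave 0 with DESeq2, 2 with no filter and 0 to 2 with 1 library left out.

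With 1 library left out at E9.5, the log2 difference in Sclerotome abundance ranged from -0.056 to 0.28, with a turned sign without WT library D (-0.047) or null library B (-0.056), and at E8.5 from 0.060 to 1.09. The mean atlas day, null minus WT, ranged from -0.00079 to 0.019, the share of cells from -0.156 to 1.64 percentage points, both turning without null library B, the *Uncx* to *Tbx18* log2 ratio from -0.12 to 0.42, turning without WT library D, the Sclerotome to Dermomyotome ratio from 1.58 to 2.60 and the mitochondrial share from -0.277 to -0.0729 percentage points. The *Pax1* difference ranged from -0.154 to 0.0611, turning without WT library C or null library B, and that of *Pax9* from -0.0835 to 0.154, turning without WT library D or null library C. The causes were not tested. Gene values were recomputed for 178 pairs of a gene and a comparison, those that the naming rule gave, *Pax1*, *Pax9* and *Igf2* at E9.5, and other genes of the text past the adjusted p. Under the alternatives other than leaving out a library, 796 of these values kept their direction and side of the threshold and 48 no longer passed. Newly passing were 36 with no fold threshold, which by construction are those past the adjusted p alone, and 4 otherwise, *Socs2* in WT with other size factors, *Foxc2* and *Selenop* in null cells with DESeq2, and *Pax9* in null cells with no filter.

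No paired analysis was possible because library names carry no pool or replicate number, so the fits lack the pool term of the study's model. In simulated data 4-fold differences in abundance were called in 68% of 50 draws at E8.5 and 98% at E9.5. The simulated spread between libraries was set in advance and not estimated from these data. These shares therefore need not hold for the real tests.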

Other observations

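At E7.5, 1 of the 2172 cells of null library A was labelled Sclerotome. It held 45717 UMIs, its label score was 0.4 and its mapped atlas stage was E8.25. The other E7.5 libraries had 0 of 723, 0 of 1783 and 0 of 360 cells, with upper 95% Clopper-Pearson bounds of 0.509%, 0.207% and 1.02%. *Nnat*, at 8.03 CPM in the Sclerotome cells of E9.5 null library B, was also low over all cells of that library, at 20.5 CPM against 200 to 455 CPM in the other E9.5 null libraries.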
